A study of Mus musculus with 12 samples.

Results

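Bone marrow LSK cells, which lack lineage antigens and carry Sca1 and c-Kit, were compared between preleukemic Cbfb-MYH11 mice (CM) and wild-type mice (WT), without irradiation, across all genes measured by RNA sequencing. The libraries were chosen by their titles: 3 unirradiated CM and 3 unirradiated WT libraries, 6 of the 12 in the study, each from an animal with its own number. Both groups had been sorted, taken through the same incubation as irradiated cells without receiving the dose, and harvested 24 h later. The other 6 libraries came from cells of the same 6 animals given 3.5 Gy ex vivo, and they entered the fit only to estimate the spread. The age, strain and sex of the mice, and how the fusion allele was carried or switched on, are details not given in the sources used here. The titles call the WT animals control, and the library names carry the letter C for WT animals 1 and 3 and WT for animal 2, with no key to that letter.

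Core binding factor is a pair of proteins: a RUNX protein binds DNA, and the CBFB subunit steadies it there. In inv(16) acute myeloid leukemia CBFB is joined to the tail of a smooth muscle myosin, MYH11, and the fusion protein interferes with RUNX function in blood stem and progenitor cells. Mice that carry the fusion go through a preleukemic stage with disturbed differentiation before leukemia appears. The LSK compartment holds the hematopoietic stem cells and the multipotent progenitors from which myeloid and lymphoid cells arise.

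Without irradiation, 237 of 14599 genes tested differed between the genotypes in edgeR's quasi-likelihood test, taken at a Benjamini-Hochberg adjusted p under 0.05, which is 1.62% of them. Of these, 137 were higher in CM (0.938% of genes tested) and 100 were lower (0.685%). The genes that rose included the cytoskeleton and adhesion genes Syne2, Arhgef12 and Ptk2, the imprinted gene Peg10 and the ectoenzyme gene Cd38. Those that fell included the eosinophil granule genes Epx, Prg2 and Prg3, the calprotectin genes S100a8 and S100a9, the neutrophil elastase gene Elane and Runx3. Other genes of neutrophils and eosinophils, Lcn2, Cxcr2, Csf3r and Siglecf, were among those that rose. The decreases were the larger, with a median log2 fold change of -2.30 among genes lower in CM and 1.66 among genes higher in CM, against 0.0172 over all genes tested. The 3 CM and 3 WT libraries did not overlap for 2333 of the genes tested (16%), all 237 called genes among them. Changes over 4-fold were found for 50 of the genes higher in CM and 54 of those lower, and changes under 2-fold for 33 and 16.

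The animals of a genotype were not alike, which sets how firmly the count can be read. Total gene counts were 68.5 to 89.5 M in the unirradiated libraries. On the first principal component of the 6 libraries, which held 59.7% of the variance, CM animals 1 and 3 stood at 68.5 and 70.7, CM animal 2 at -36.0, WT animals 2 and 3 at -49.4 and -52.3, and WT animal 1 at -1.49. The deviations of the unirradiated and irradiated libraries of CM animal 3 correlated at 0.125, while those of the other 5 animals correlated at 0.412 to 0.844. Whether a library of CM animal 3 was swapped cannot be told from these data. Leaving out the unirradiated library of CM animal 1 gave 8 calls, and leaving out that of CM animal 3 gave 4. Leaving out that of CM animal 2 gave 914. The counts were 53, 20 and 15 without WT animals 1, 2 and 3. Without the irradiated library of CM animal 3 there were 361 calls, and without both of its libraries 147. A fit of the 6 unirradiated libraries alone called 78 genes, 25 higher and 53 lower, of which 70 were among the 237. That is 29.5% of the 237 and 89.7% of the 78. The main fit counts 2 libraries of an animal as independent, and with the animal as a correlated block limma-voom called 5 genes. The numbers in the library names form 2 series, the first with WT animal 1 and CM animals 1 and 2, the other with WT animals 2 and 3 and CM animal 3. A term for the series gave 180 calls, 152 of them among the 237. Within the first and the other series the mean log2 difference of CM from WT was 2.50 and 2.17 for Syne2, 2.54 and 3.43 for Cd38, -5.76 and -5.70 for Epx, and -4.95 and -2.66 for S100a8, with too few libraries in either for a test.

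**Figure D1:**
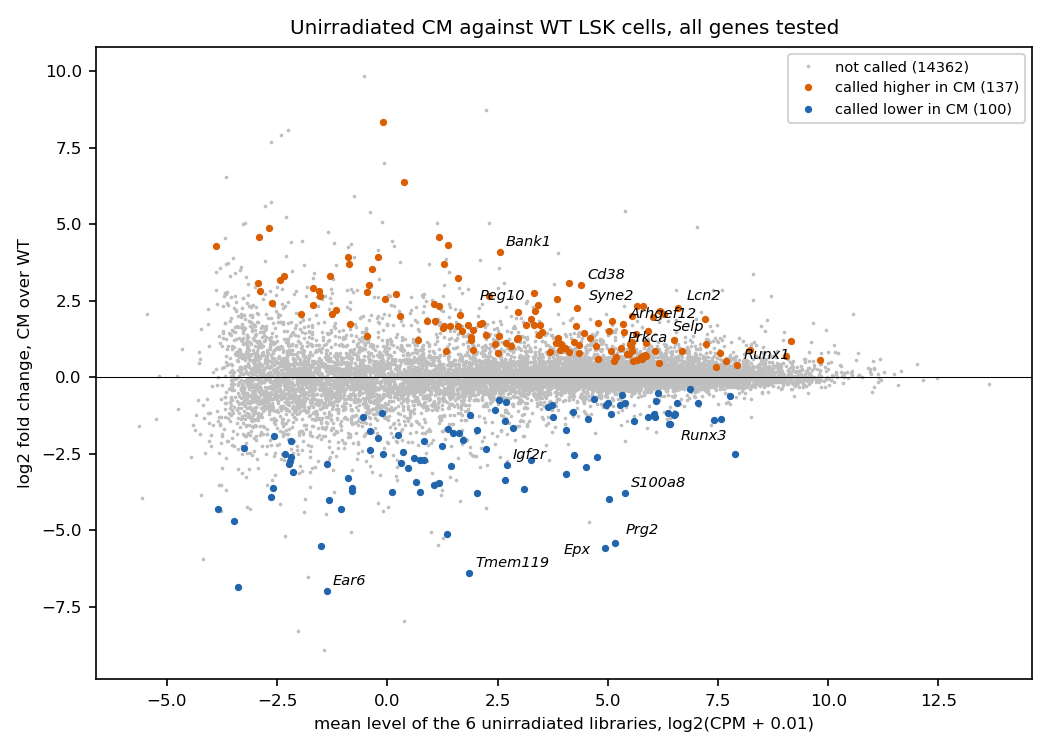
Log2 fold change of CM over WT (vertical axis) against mean level on a log2 scale (horizontal axis) for the 14599 genes tested, with 137 genes called higher in orange, 100 called lower in blue and the others in grey. Tmem119, Epx, Prg2 and Ear6 are among the lowest points, and the fitted change of genes with few reads, such as Ear6, depends on the prior count.

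The sorted population was checked against its own markers on the RPKM scale, which divides by gene length. Kit, the c-Kit receptor, stood at 28.0 to 53.5 RPKM in the 6 libraries. Ly6a, which encodes Sca1, stood at 41.4 to 137 RPKM in WT and at 46.0 to 448 RPKM in CM, where CM animals 1 and 3 were high and animal 2 was within the WT range. The lineage antigen genes Cd3e, Cd4, Cd8a and Ly6g were all under 0.5 RPKM. Itgam, the lineage antigen CD11b, was expressed in every library, at 31.5 to 53.7 RPKM in WT and 24.9 to 123 RPKM in CM.

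The members of core binding factor came first. Runx1, the DNA-binding partner in stem cells, stood at 200, 217 and 220 CPM (reads scaled to library size) in WT animals 1, 2 and 3 and at 282, 278 and 270 CPM in CM. The groups did not overlap, and the log2 fold change was 0.38 ± 0.07 (SE, adjusted p = 0.0328), which the fit of 6 libraries did not call (adjusted p = 0.164). Runx3, a family member that is active in lymphoid and myeloid cells, fell from 120, 130 and 128 CPM to 35.0, 61.3 and 35.6 CPM (log2 fold change -1.52 ± 0.28, adjusted p = 0.0298). CM animal 2 had the smallest decrease. Runx1 lies on chromosome 16 (mm10, 92601466 to 92826074, minus strand) and Runx3 on chromosome 4 (135120645 to 135177990, plus strand). Cbfb itself, at 189 to 238 CPM in WT and 205 to 278 CPM in CM, overlapped between groups (log2 fold change 0.19 ± 0.15, adjusted p = 0.573). Myh11 had 9 to 15 reads in a WT library and 18 to 39 in a CM library (1.28 ± 0.44, adjusted p = 0.195). Gene counts do not separate fusion from normal transcripts, so these values do not check the genotype. Of the 8 tested members of the list of core binding factor and its partners, 1 rose, 1 fell and 6 did not pass. Their median log2 fold change was 0.0020, and 1.62% of all genes tested were called.

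The smallest p-values belonged to Syne2, Peg10, Arhgef12 and Prkca, in that order, and all 4 rose. Syne2 encodes nesprin-2, a giant protein that ties the nucleus to the cytoskeleton. It stood at 16.8, 21.7 and 17.3 CPM in WT and at 99.5, 90.7 and 87.0 CPM in CM, so the lowest CM library was far above the highest WT one. The genotypes differed by 2.31 ± 0.17 on the log2 scale (SE; adjusted p = 0.000708; chromosome 12, 75818318 to 76110928, plus strand). Peg10, an imprinted gene derived from a retrotransposon, stood at 2.84, 3.83 and 3.66 CPM in WT and at 17.6, 15.8 and 20.1 CPM in CM. The difference was 2.37 ± 0.19 (adjusted p = 0.000835; chromosome 6, 4747306 to 4760516, plus strand).

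Arhgef12 encodes an exchange factor that activates the small GTPase RhoA. It stood at 17.1, 18.8 and 21.1 CPM in WT and at 63.5, 55.5 and 69.3 CPM in CM (log2 fold change 1.72 ± 0.15, adjusted p = 0.00156; chromosome 9, 42963842 to 43105718, minus strand). Prkca, the gene of protein kinase C alpha, stood within a narrow band of 26.8 to 27.2 CPM in WT and at 49.3, 55.9 and 51.7 CPM in CM (0.95 ± 0.10, adjusted p = 0.00648). Syne2, Peg10, Arhgef12 and Prkca were the 4 genes that passed under all 19 alternative settings tried for this comparison, among them each of the 6 unirradiated libraries left out in turn. Ptk2, the gene of focal adhesion kinase, passed under 17 and stood at 8.48, 10.1 and 9.54 CPM in WT and 28.3, 33.0 and 27.6 CPM in CM (1.66 ± 0.19, adjusted p = 0.00932). Arhgef12, Prkca and Ptk2 fall outside the naming rule and were chosen after their values were seen.

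The other genes with large increases differed in how far CM animal 2 lay below CM animals 1 and 3. Grap, an adaptor of the GRB2 family, stood at 1.87, 0.999 and 1.24 CPM in WT and at 10.02, 6.45 and 9.09 CPM in CM (2.64 ± 0.35, adjusted p = 0.013). Sdc1, the heparan sulfate proteoglycan syndecan-1, stood at 3.46, 10.1 and 6.83 CPM in WT and at 36.0, 29.9 and 31.5 CPM in CM (2.26 ± 0.39, adjusted p = 0.0245). Both genes were high in all 3 CM animals. Cd38 encodes the ectoenzyme that consumes NAD. It stood at 4.21, 5.54 and 4.18 CPM in WT and at 47.4, 12.7 and 52.2 CPM in CM (3.01 ± 0.52, adjusted p = 0.0245), where animal 2 was above WT but well below animals 1 and 3. Bank1, a scaffold of B cell receptor signalling, was at 0.525 to 0.738 CPM in WT and at 16, 2.41 and 14.6 CPM in CM (4.08 ± 0.73, adjusted p = 0.029).

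Tctex1d1, a dynein light chain gene, Hopx, the homeodomain-only protein gene, Lrg1, Myof, the membrane repair gene myoferlin, and Lcn2, the iron-siderophore binding protein lipocalin-2, showed the same order, with CM animal 2 the lowest CM library and still above every WT library. Their log2 fold changes were 2.26 to 3.08, with adjusted p from 0.0393 to 0.0483. The actin-associated gene Synpo rose from 0.397 to 0.678 CPM in WT to 6.85, 3.62 and 5.87 CPM in CM (3.24 ± 0.45, adjusted p = 0.0144). Among all 137 genes higher in CM, CM animal 2 was below both other CM animals for 92, and by more than 2-fold for 19. Among the 100 genes lower in CM, it was above both for 44, and by more than 2-fold for 3. The matching shares over all genes were not counted.

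**Figure D2:**
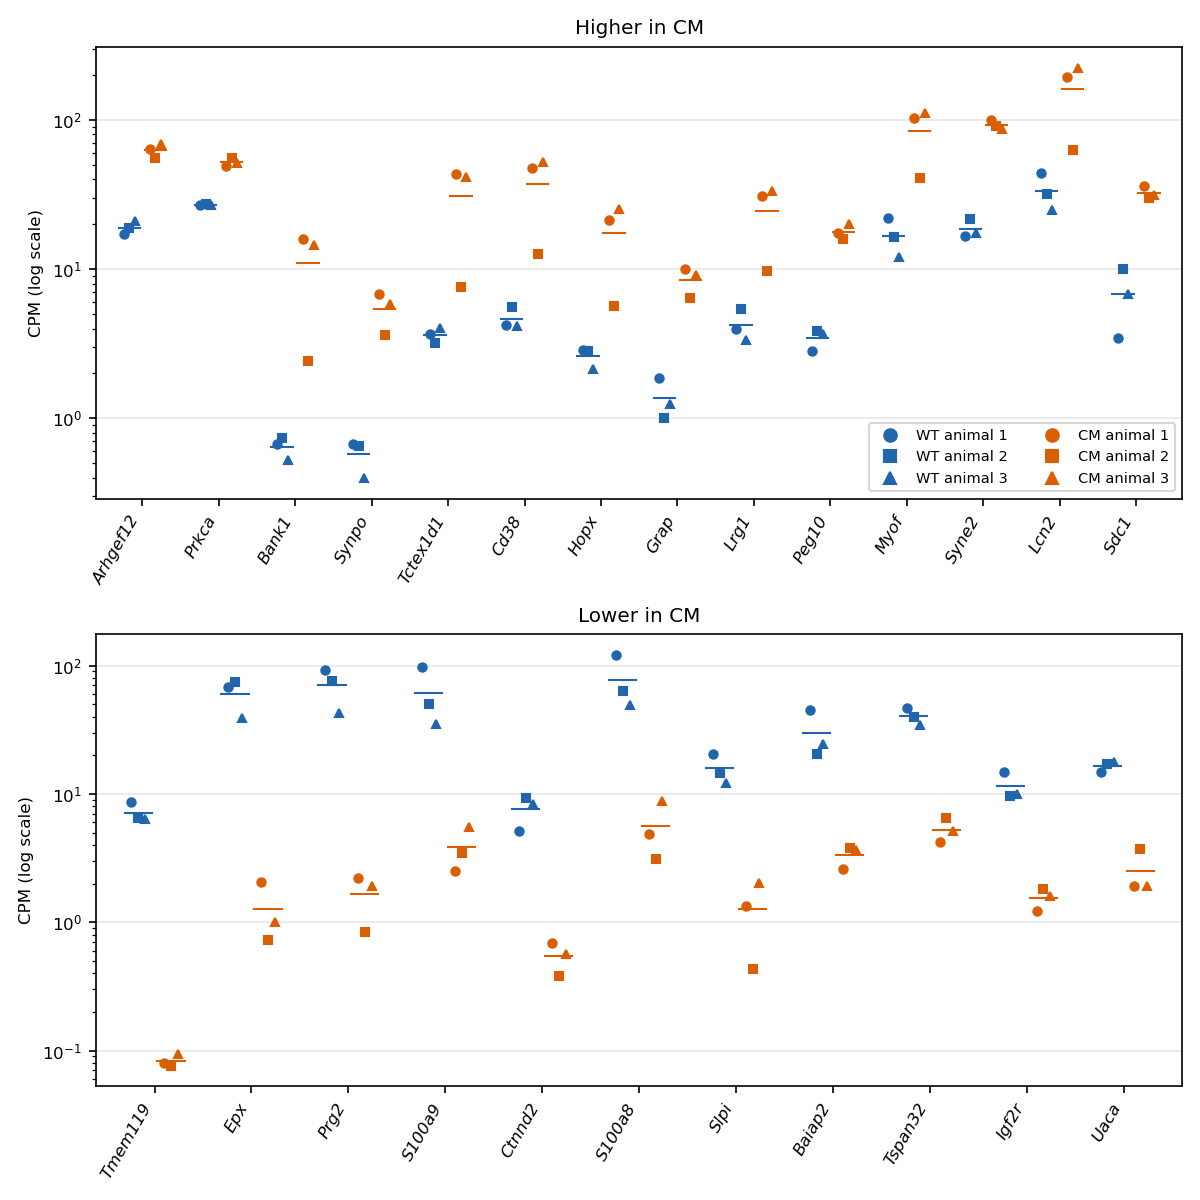
CPM on a log axis of the 12 named genes with the largest increases, with Arhgef12 and Prkca in front, and of 11 of those with the largest decreases. Each symbol is the library of a numbered animal, WT in blue and CM in orange, and each line is the mean of 3 libraries; the groups do not overlap for any gene shown, and the CM square (animal 2) is the lowest CM symbol for Cd38, Bank1 and Lcn2.

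The decreases were led by genes that WT libraries expressed and CM libraries nearly lacked. Tmem119, a membrane protein gene used as a marker of microglia, stood at 8.61, 6.47 and 6.39 CPM in WT and at 0.0798, 0.0762 and 0.0945 CPM in CM. The genotypes differed by -6.40 ± 1.35 on the log2 scale (adjusted p = 0.047; chromosome 5, 113793729 to 113800396, minus strand), and the fit of the 6 libraries gave an adjusted p of 0.00328. Its irradiated CM libraries were at 0.758 ± 1.23 CPM (SD, n = 3), so the spread among them entered the larger fit. Tspan32, a hematopoietic tetraspanin gene, stood at 46.9, 40.1 and 34.1 CPM in WT and at 4.20, 6.44 and 5.18 CPM in CM (-2.94 ± 0.47, adjusted p = 0.0207).

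Igf2r encodes the receptor that clears IGF2 and is imprinted in mice. It stood at 14.9, 9.56 and 10.1 CPM in WT and at 1.22, 1.83 and 1.61 CPM in CM (-2.89 ± 0.40, adjusted p = 0.0144). Baiap2, whose product bends membranes at actin protrusions, fell from 45.3, 20.4 and 24.3 CPM to 2.58, 3.77 and 3.64 CPM (-3.17 ± 0.58, adjusted p = 0.03). Ctnnd2, a delta-catenin gene, Slpi, a secreted inhibitor of neutrophil proteases, and Uaca fell by 3.80, 3.64 and 2.72 on the log2 scale, with adjusted p from 0.021 to 0.034. For each of these genes every CM library was below every WT library.

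Eosinophil granule genes showed the largest decrease of any lineage list. Epx encodes eosinophil peroxidase, Prg2 and Prg3 the major basic proteins that fill the granule core, and the Ear genes ribonucleases of the granule. RefSeq gives promoter windows (GRCm38.p6, the 250 bases before the gene start, written 5′ to 3′ on the strand of the gene) for 7 of 9 eosinophil and mast cell genes looked up, and 5 are printed here: 4 of granule genes that were lower in CM libraries (Epx, Prg3 and Ear2 passed the test, Ear1 did not) and that of Mcpt4, a mast cell protease gene that rose. Capitals mark the RUNX core motif TGTGGT, searched on both strands, so that it reads ACCACA on the other strand.
Epx (chr11:87875537-87875786, minus strand): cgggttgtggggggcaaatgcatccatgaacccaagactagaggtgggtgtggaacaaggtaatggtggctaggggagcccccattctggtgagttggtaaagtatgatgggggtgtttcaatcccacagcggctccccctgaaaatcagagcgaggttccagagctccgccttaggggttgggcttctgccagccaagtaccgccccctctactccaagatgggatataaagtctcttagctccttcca
Prg3 (chr2:84987965-84988214, plus strand): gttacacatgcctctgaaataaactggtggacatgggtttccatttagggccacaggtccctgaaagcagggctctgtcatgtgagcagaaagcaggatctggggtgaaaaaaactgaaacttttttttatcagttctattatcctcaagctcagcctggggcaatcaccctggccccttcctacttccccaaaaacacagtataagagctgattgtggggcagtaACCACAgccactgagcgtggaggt
Ear1 (chr14:43819640-43819889, minus strand): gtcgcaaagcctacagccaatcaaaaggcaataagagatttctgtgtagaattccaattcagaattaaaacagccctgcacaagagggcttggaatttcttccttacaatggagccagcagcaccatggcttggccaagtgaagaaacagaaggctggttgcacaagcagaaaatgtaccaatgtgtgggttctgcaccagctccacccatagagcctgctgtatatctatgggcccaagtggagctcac
Ear2 (chr14:44102404-44102653, plus strand): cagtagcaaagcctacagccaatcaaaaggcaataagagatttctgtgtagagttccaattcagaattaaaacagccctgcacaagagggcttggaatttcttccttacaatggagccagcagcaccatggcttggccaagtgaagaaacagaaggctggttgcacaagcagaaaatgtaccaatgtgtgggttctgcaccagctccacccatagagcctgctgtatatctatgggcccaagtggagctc
Mcpt4 (chr14:56062311-56062560, minus strand): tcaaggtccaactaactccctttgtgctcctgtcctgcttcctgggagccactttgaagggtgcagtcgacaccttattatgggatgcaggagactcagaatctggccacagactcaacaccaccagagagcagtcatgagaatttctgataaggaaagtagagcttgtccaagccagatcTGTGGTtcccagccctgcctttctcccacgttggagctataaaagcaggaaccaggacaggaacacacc
The core motif was found in the windows of Prg3 and Mcpt4 and not in those of the other 5 genes, Epx, Ear1, Ear2, Ear6 and Siglecf. It was in 11.4% of 14443 windows of all genes tested, in 14.8% of 108 windows of genes lower in CM and in 8.3% of 144 windows of genes higher in CM. The windows of Ear1 and Ear2 were 99.2% identical and those of Ear1 and Ear6 72.2%. Because close paralogs such as these may share reads, the split of counts among the Ear genes is uncertain.

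Epx stood at 67.7, 73.8 and 39.1 CPM in WT and at 2.06, 0.724 and 1.01 CPM in CM (log2 fold change -5.57 ± 0.66, adjusted p = 0.00932; chromosome 11, 87863998 to 87875536, minus strand). Prg2 stood at 92.4, 75.9 and 42.9 CPM in WT and at 2.22, 0.838 and 1.92 CPM in CM (-5.41 ± 0.72, adjusted p = 0.0137; chromosome 2, 84980461 to 84983632, plus strand). Its neighbour Prg3 fell from 6.18, 5.96 and 2.68 CPM to 0.12, 0.0889 and 0.216 CPM (-5.12 ± 0.72, adjusted p = 0.0144). In all 3 genes WT animal 3 was the lowest WT library and still more than 10 times the highest CM library.

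Ear6 had 55, 96 and 32 reads in the WT libraries and 0, 0 and 1 in the CM libraries, a WT to CM ratio of 174 with a counting interval of 30.9 to 6920 (95%, exact, counting error only; adjusted p = 0.0207). Ear2 had 10, 22 and 10 reads in WT and 0 in each CM library, which is at least 13.3-fold lower when 3 reads over the CM group are taken as the floor (adjusted p = 0.0495). Ear1, at 3.32 to 6.94 CPM in WT and 0 to 0.337 CPM in CM, did not pass (adjusted p = 0.0716).

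Siglecf, the sialic acid receptor that marks mature eosinophils, went the other way and rose from 5.15, 4.66 and 4.12 CPM to 16.5, 7.21 and 22.1 CPM (1.72 ± 0.36, adjusted p = 0.0481). Il5ra, the receptor for the eosinophil growth factor, stood at 0.447 to 0.738 CPM in WT and 0.216 to 0.337 CPM in CM and did not pass (adjusted p = 0.269). Of the 11 tested members, 5 fell, 1 rose and 5 did not pass, beside 0.685% and 0.938% of all genes, and the median was -5.12, or -3.74 with Ear2 at its bound. The summed level of the list was 376 to 456 CPM in WT and 230 to 279 CPM in CM, most of which was Cd24a, a surface protein also made by progenitors. Without the unirradiated library of CM animal 3 none of the 11 fell at the threshold, without that of CM animal 1 only 1 did, and without a WT library 2 or 3 did. In these bulk samples fewer cells of a type and less RNA per cell cannot be told apart.

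**Figure D3:**
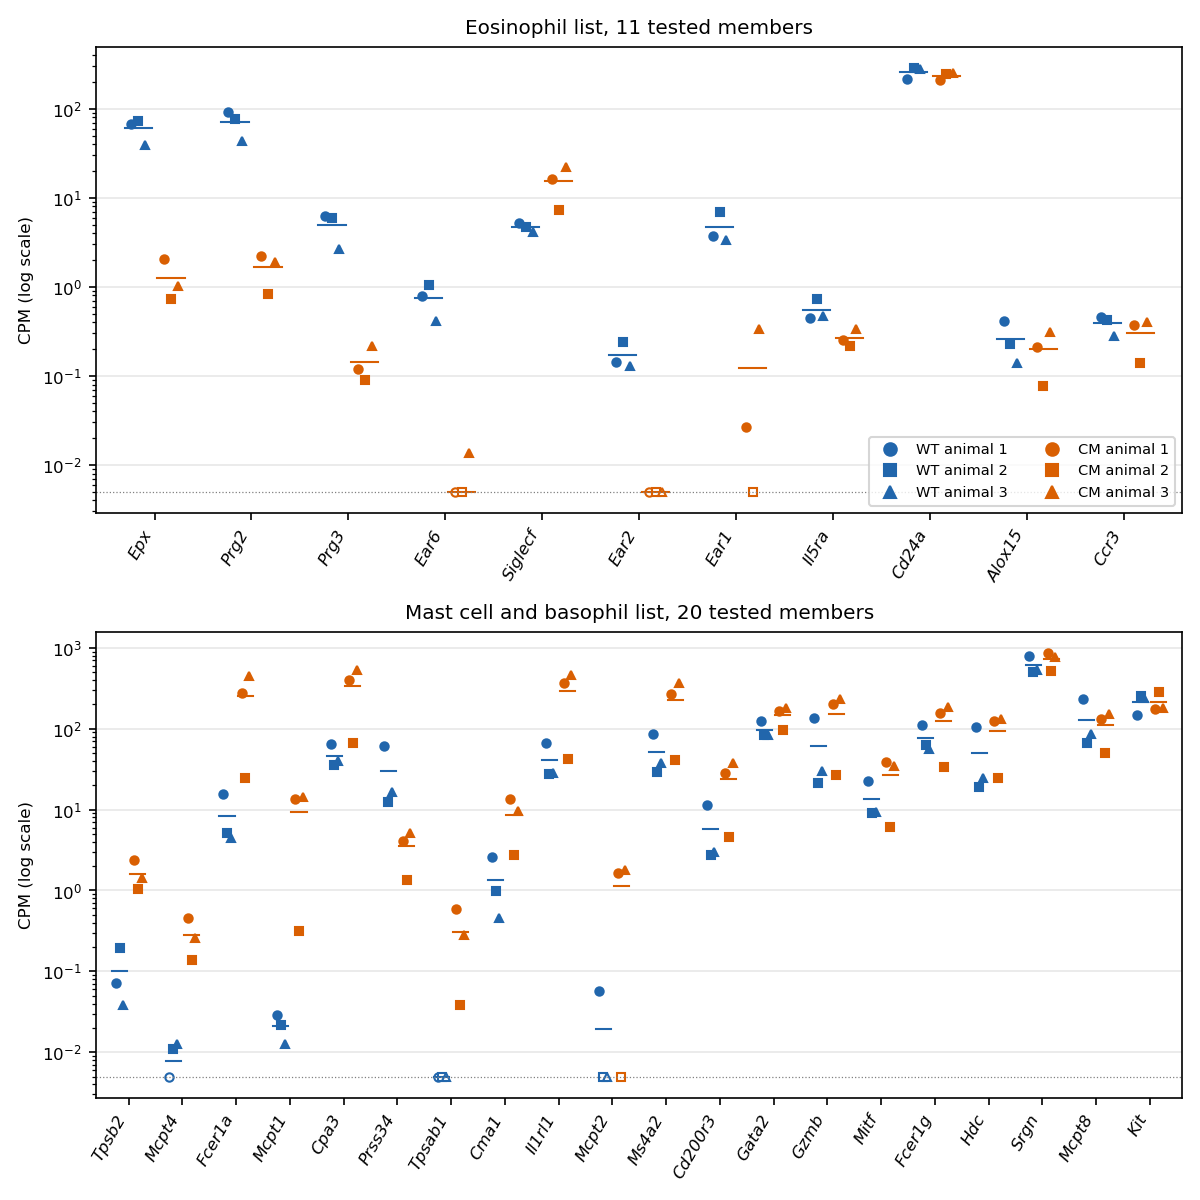
CPM on a log axis of the 11 tested eosinophil genes and the 20 tested mast cell and basophil genes in each of the 6 libraries, WT in blue and CM in orange, with lines at the group means. Open symbols on the dotted line are libraries with 0 reads; Epx, Prg2, Prg3, Ear6 and Ear2 lie lower in every CM library, while most mast cell genes are high in CM animals 1 and 3 (circle and triangle).

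Late neutrophil genes split. S100a8 and S100a9 encode the subunits of calprotectin, an abundant neutrophil protein. S100a8 stood at 121, 63.4 and 49.0 CPM in WT and at 4.90, 3.09 and 8.80 CPM in CM (-3.80 ± 0.74, adjusted p = 0.0376). S100a9 stood at 97.9, 49.9 and 35.1 CPM in WT and at 2.50, 3.45 and 5.56 CPM in CM (-3.99 ± 0.83, adjusted p = 0.0435). WT animal 1 was the highest library for both. Cxcr2, the chemokine receptor of neutrophil egress, rose from 24.2, 17.5 and 14.2 CPM to 73.1, 32.8 and 118 CPM (2.0 ± 0.41, adjusted p = 0.0428), and Lcn2, whose product is stored in secondary granules, from 43.9, 31.8 and 25 CPM to 195, 62.8 and 225 CPM (2.26 ± 0.48, adjusted p = 0.0483).

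Other granule genes also lay on both sides of 0 and did not pass. Camp, Ltf and Ngp had log2 fold changes of -5.07 ± 1.30, -4.04 ± 1.33 and -4.73 ± 1.14 (adjusted p = 0.0858, 0.176 and 0.072). Mmp8, the neutrophil collagenase gene, had 2.66 ± 0.84 (adjusted p = 0.157). Of 15 tested members 2 rose, 2 fell and 11 did not pass, beside 0.938% and 0.685% of all genes, with a median of -0.943. The summed level was 424 to 935 CPM in WT and 340 to 2436 CPM in CM, and Ly6g was at 0.0540 to 0.173 CPM in all 6 libraries. No member passed when any unirradiated library other than that of CM animal 2 was left out.

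Among azurophil granule and myeloid progenitor genes, Elane, the gene of neutrophil elastase, fell from 313, 219 and 204 CPM to 107, 54.6 and 119 CPM (-1.39 ± 0.29, adjusted p = 0.0434). Csf3r, the receptor for granulocyte colony-stimulating factor, rose from 94.0, 106 and 90.8 CPM to 188, 260 and 162 CPM (1.07 ± 0.21, adjusted p = 0.0376). Neither gene overlapped between the groups, and neither was called in the fit of 6 libraries (adjusted p = 0.158 and 0.0913). They were also the only members called among 24 tested RUNX1 target and partner genes of myelopoiesis, whose median was 0.215. The azurophil list, with 24 tested members, had a median of 0.207. The share called over all genes tested was 1.62%. Mpo, myeloperoxidase, stood at 2362 ± 240.2 CPM in WT and 1699.7 ± 275 CPM in CM (SD, n = 3), with no overlap, and did not pass (-0.47 ± 0.18, adjusted p = 0.251), and Prtn3, proteinase 3, stood at 334 to 361 CPM in WT and 354 to 377 CPM in CM (0.07 ± 0.12, adjusted p = 0.813).

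Mast cell and basophil genes were mostly higher in CM, and 2 of 20 tested members passed, both of them higher. Of all genes tested, 0.938% were called higher. Tpsb2, a tryptase gene, had 5, 18 and 3 reads in the WT libraries and 177, 82 and 107 in the CM libraries (3.93 ± 0.62, adjusted p = 0.02). Mcpt4, the chymase whose promoter window is printed above, had 0, 1 and 1 reads in WT and 34, 11 and 19 in CM, a CM to WT ratio of 33.6 with a counting interval of 8.93 to 284 (95%, exact, counting error only; adjusted p = 0.0285). Neither passed in the fit of 6 libraries (adjusted p = 0.0821 for each).

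The more abundant genes of these cells were highest in CM animals 1 and 3. Fcer1a, the alpha chain of the IgE receptor, stood at 15.5, 5.20 and 4.41 CPM in WT and at 281, 24.7 and 450 CPM in CM (4.92 ± 1.14, adjusted p = 0.0671). Cpa3, mast cell carboxypeptidase, stood at 64.6, 35.1 and 40.2 CPM in WT and at 405, 66.4 and 538 CPM in CM (2.85 ± 0.72, adjusted p = 0.0799). Il1rl1, the receptor for interleukin-33, stood at 65.7, 27.3 and 28.6 CPM in WT and at 370, 42.6 and 467 CPM in CM, where animal 2 lay within the WT range (2.85 ± 0.90, adjusted p = 0.153). Prss34, a basophil protease gene, had its higher values in WT, at 12.4 to 61.9 CPM against 1.35 to 5.18 CPM in CM (-3.10 ± 0.80, adjusted p = 0.0888). Over the list, 17 of 20 fitted changes were above 0 and the median was 2.10. The summed level was 1127 to 1979 CPM in WT and 3249, 1213 and 3770 CPM in CM animals 1, 2 and 3. Without the unirradiated library of CM animal 2, 10 members passed, all higher in CM, and with any other unirradiated library left out at most 1 did.

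T and NK cell genes gave no call among 14 tested members, of which 13 had fitted changes below 0, with a median of -1.37. Of all genes tested, 1.62% were called. Klrd1, an NK receptor chain, stood at 4.90, 7.84 and 7.84 CPM in WT and at 1.76, 0.318 and 1.36 CPM in CM (-2.58 ± 0.59, adjusted p = 0.0631). Gzma, granzyme A, had 38, 43 and 90 reads in WT and 0 in each CM library, at least 54.3-fold lower with 3 reads over the CM group as the floor (adjusted p = 0.11). The summed level of the list was 61.1 to 178 CPM in WT and 65.7 to 243 CPM in CM, of which Gzmb was the largest share in CM animals 1 and 3. The part that other cell types in the sort had in these changes was not tested.

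**Figure D4:**
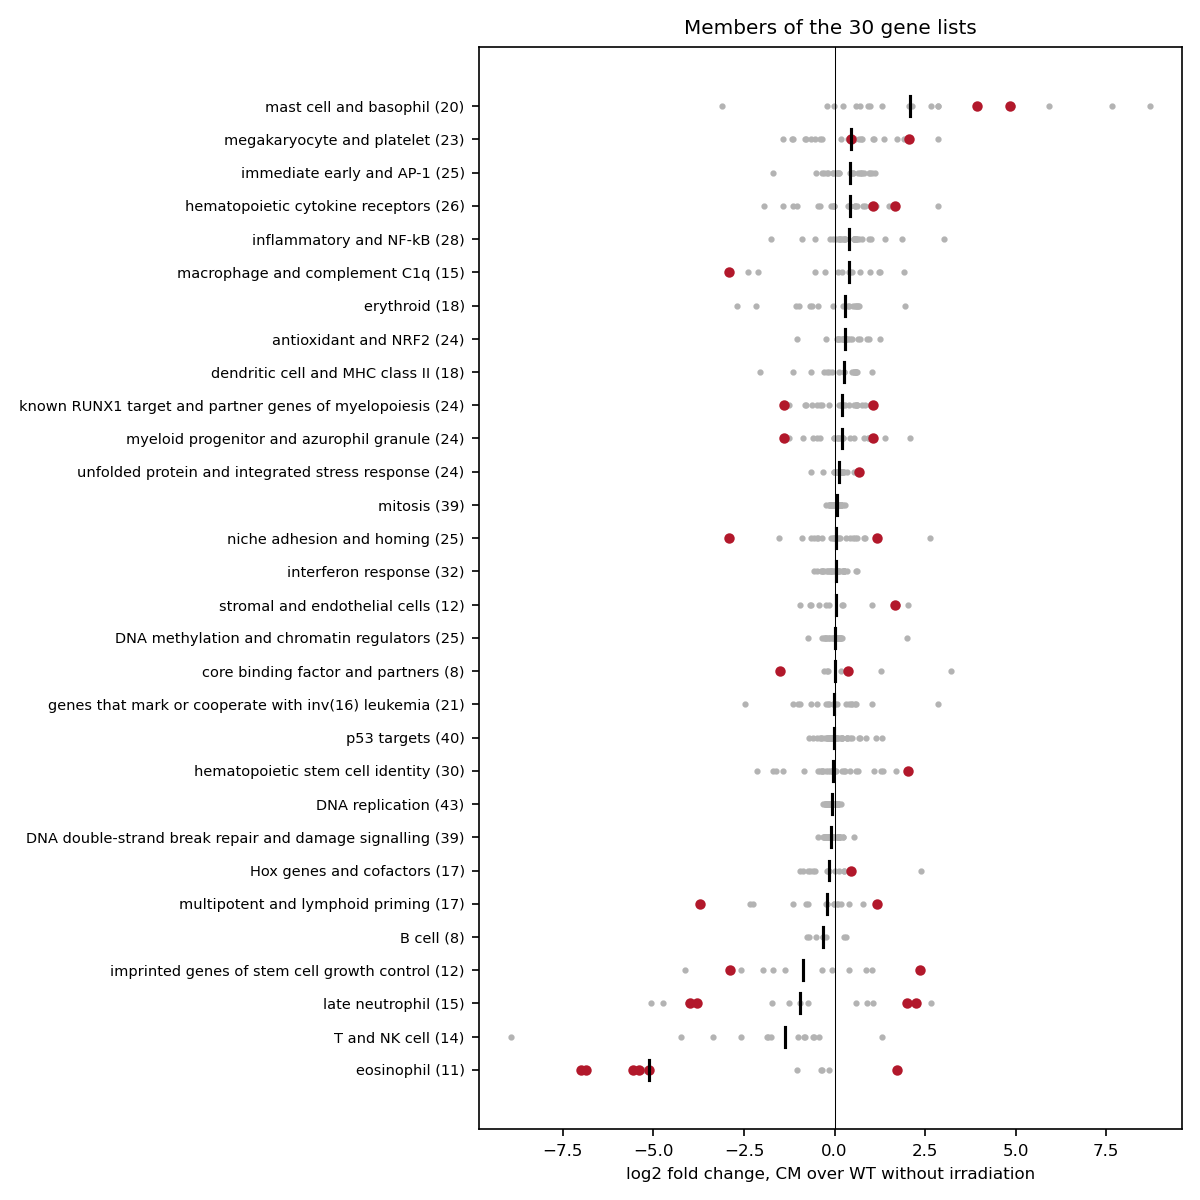
Log2 fold changes of CM over WT for the tested members of 30 gene lists, ordered by the list's median (black bar), with members past an adjusted p of 0.05 in red and the others in grey. The eosinophil list lies lowest, with a median of -5.12, and the mast cell and basophil list highest, at 2.10; the red points at the far left include genes with 0 or 1 reads in CM, whose fitted value is no bound.

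Stem cell identity genes did not move together. Pdzk1ip1, a marker of quiescent stem cells, was the only member of 30 tested that passed, rising from 1.59, 1.04 and 1.05 CPM to 5.65, 2.84 and 6.63 CPM (2.04 ± 0.38, adjusted p = 0.0306). The list's median was -0.0368, and 1.62% of all genes tested were called. Slamf1, the CD150 antigen, stood at 1.83 to 2.05 CPM in WT and at 3.65, 7.40 and 3.76 CPM in CM (1.34 ± 0.32, adjusted p = 0.0724). Hlf, a stem cell transcription factor gene, differed among the animals of a genotype, at 31.7, 85.1 and 78.7 CPM in WT and 19.95, 127 and 18.8 CPM in CM (-0.24 ± 0.76, adjusted p = 0.905). Mecom showed the same order, at 5.18, 11.7 and 12.5 CPM in WT and 1.24, 24.6 and 1.04 CPM in CM. CM animal 2 was thus above all WT libraries and CM animals 1 and 3 below them for both genes.

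In the list of Hox genes and cofactors, 1 of 17 tested members rose, 16 did not pass, and the median was -0.146. Of 12 tested imprinted genes of stem cell growth control, Peg10 rose and Igf2r fell, and the median was -0.864. Over all genes tested, 0.938% rose and 0.685% fell. The maternally expressed noncoding RNA Meg3 stood at 0.706 to 1.82 CPM in WT and 0.189 to 0.622 CPM in CM and did not pass (adjusted p = 0.197).

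Genes of lymphoid priming and niche adhesion were called in both directions. Over all genes tested, 0.938% were called higher and 0.685% lower. Ikzf3, the lymphoid factor Aiolos, fell from 1.47, 0.933 and 0.769 CPM to 0.0266, 0.102 and 0.108 CPM (-3.72 ± 0.62, adjusted p = 0.0216). Vcam1, an adhesion molecule of stroma, macrophages and some stem cells, fell from 5.41, 4.79 and 4.29 CPM to 0.519, 0.864 and 0.526 CPM (-2.92 ± 0.39, adjusted p = 0.014). Of 17 tested priming genes 1 rose and 1 fell (median -0.201). Of 25 niche adhesion genes 1 rose and 1 fell (median 0.0454), of 8 B cell genes none passed (median -0.309), and Vcam1 was the only call among 15 macrophage genes (median 0.396).

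Of 23 tested megakaryocyte and platelet genes 2 rose and 21 did not pass (median 0.449), beside 0.938% of all genes that rose. Selp, the platelet and endothelial adhesion receptor P-selectin, rose and stood at 14.4, 37.8 and 37.7 CPM in WT and at 112, 176 and 89.9 CPM in CM (2.07 ± 0.41, adjusted p = 0.0393). WT animal 1 was the lowest library. Lepr, the leptin receptor, rose from 0.822, 1.62 and 0.986 CPM to 3.42, 3.14 and 4.48 CPM (1.68 ± 0.30, adjusted p = 0.029) and Lepr and Csf3r were the 2 calls among 26 cytokine receptors (median 0.422). Lepr is also used as a marker of marrow stroma, and no other of the 12 tested stromal and endothelial genes passed (median 0.0282), with a summed level of 252 to 278 CPM in WT and 179 to 349 CPM in CM. Xbp1, a transcription factor of the unfolded protein response, rose from 390, 419 and 402 CPM to 651, 513 and 769 CPM (0.68 ± 0.14, adjusted p = 0.0434), alone among 24 stress response genes (median 0.135).

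No member passed in the other lists, given here as medians of the log2 fold change. The 40 p53 targets had a median of -0.0228, the 39 mitosis genes 0.0581, the 43 DNA replication genes -0.0556 and the 39 double-strand break repair genes -0.0952. The mean level of the mitosis list ran from -0.11 to 0.10 over the 6 libraries, as log2 CPM relative to their mean. The 32 interferon response genes had a median of 0.0409, the 28 inflammatory genes 0.412, the 25 immediate early genes 0.439 and the 24 antioxidant genes 0.283. The 21 genes that mark or cooperate with inv(16) leukemia had a median of -0.0011, the 18 erythroid genes 0.304, the 18 dendritic cell genes 0.262 and the 25 chromatin regulators 0.0144. Of the p53 targets, Tnfsf9, a TNF family ligand gene, came nearest to the threshold, at 6.89, 8.29 and 7.10 CPM in WT and 18.1, 11.7 and 19.5 CPM in CM (1.14, adjusted p = 0.0583). In all, 26 of 616 tested list genes were called, beside 237 of all 14599 genes tested (1.62%). Of the 30 lists 14 held no call, and 211 of the 237 called genes were in no list. The lists were chosen with earlier results of these data known.

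For several of these lists the animals differed more within a genotype than the groups did. As mean log2 CPM relative to the mean of the 6 libraries, WT animals 1, 2 and 3 had interferon list levels of 1.33, -0.50 and -0.91, and the CM animals had 0.94, -1.50 and 0.63. The erythroid list levels were 1.68, -1.68 and -0.82 for WT, against 0.51, -0.41 and 0.73 for CM. The macrophage and inflammatory lists had the same order, with WT animal 1 and CM animals 1 and 3 above the others. By this mean, some lists were lower in every CM library than in any WT library. They were those of eosinophil, late neutrophil, T and NK cell, lymphoid priming and inv(16) leukemia genes. The list of core binding factor and partners was higher in every CM library by this mean. Its summed level overlapped between the groups, at 714 to 893 CPM in WT and 743 to 865 CPM in CM. The inv(16) levels lay close, at 0.040 to 0.061 in WT and -0.16 to 0.017 in CM. The summed level of that list was 3140.8 to 3342.5 CPM in WT and 4738, 3194.4 and 5251.5 CPM in CM. For the lymphoid priming list the summed level went the other way, at 1123 to 1303 CPM in WT and 1492 to 1731 CPM in CM. Single genes separated the groups for 2333 of the 14599 tested, in either direction. How many lists would separate by chance was not tested.

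**Figure D5:**
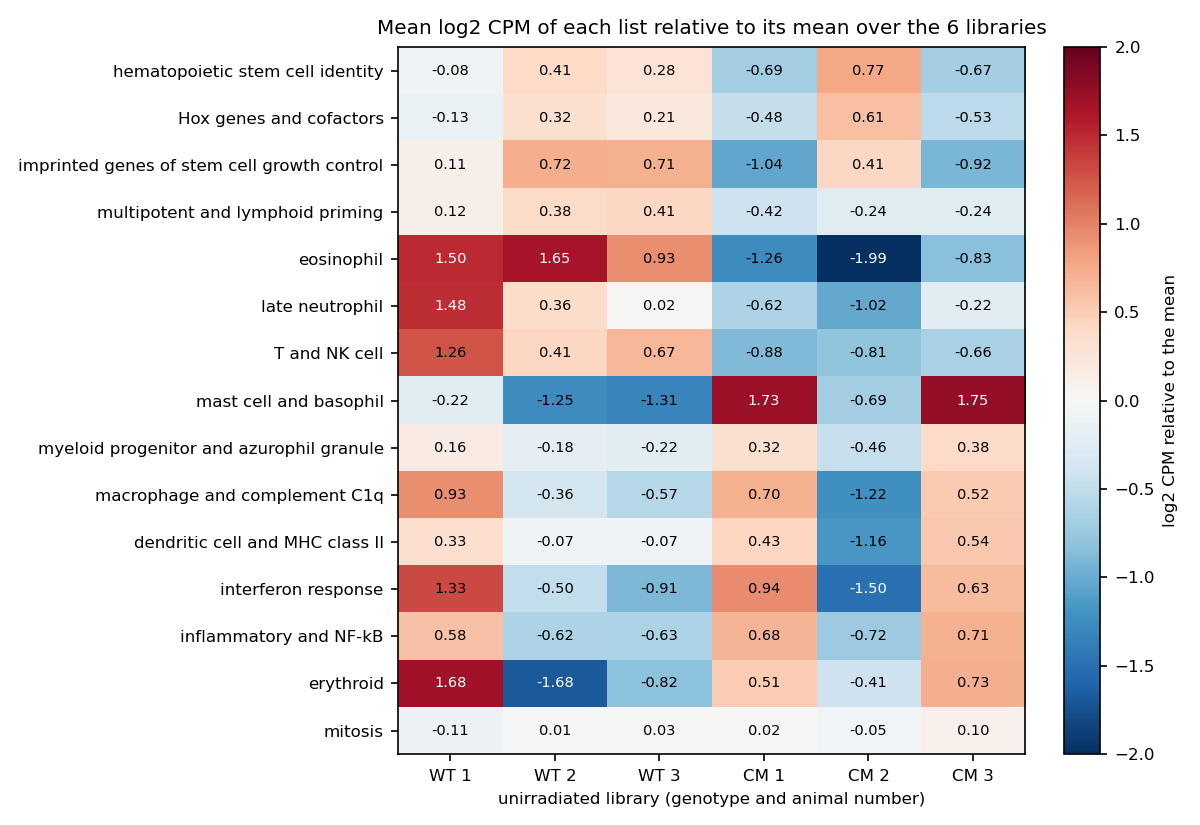
Mean log2 CPM of the members of 15 gene lists (rows) in each unirradiated library (columns), relative to the list's mean over the 6 libraries, in red where higher and blue where lower. The eosinophil row separates WT (0.93 to 1.65) from CM (-1.99 to -0.83), while the mast cell and interferon rows set CM animals 1 and 3 apart from CM animal 2.

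The same contrast between irradiated cells of the same 6 animals called 97 genes, 57 higher and 40 lower, of which 84 were among the 237. That is 35.4% of the unirradiated calls and 86.6% of the irradiated ones, from libraries that share their animals. All 237 had the same sign after irradiation. For Syne2 the log2 fold change was 2.17 after irradiation against 2.31 without it, and for Peg10 2.20 against 2.37. For Epx it was -3.58 against -5.57, and the irradiated CM libraries stood at 5.92 ± 4.92 CPM (SD, n = 3). The test of the difference between both genotype effects called 0 genes in edgeR, DESeq2 and limma-voom. In edgeR 106 genes of 14599 had an unadjusted p under 0.05. These fits did not pair the 2 libraries of an animal, so 0 calls do not show that irradiation left the genotype effect unchanged. The 3 smallest p belonged to Pappa2, a metalloproteinase gene near the limit of counting, Trp53inp1, a p53 target, and Cpt1c (unadjusted p = 0.000283, 0.00161 and 0.00214). None of them differed between genotypes without irradiation at the threshold (adjusted p = 0.294, 0.492 and 0.35).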

How the data were processed

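The deposited table of counts per gene, whole numbers with 1 column per library, gave every main result, and the deposited RPKM values served for alternatives and for levels between genes. Per the labels' protocols, ribosomal RNA was removed from AllPrep total RNA and stranded libraries followed the KAPA HyperPrep protocol. HTSeq 0.6.1p1, TopHat2, bcl2fastq 2.18.0.12 and the build mm10 are named in the deposit, per the submitters' processing notes. Strand setting and annotation are details not given in the sources used here, so genes overlapping on opposite strands and close paralogs are uncertain.

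Groups came from the titles. Of 25078 genes, filterByExpr (minimum count 10, minimum total 15) kept 14599. A model with a mean for each of the 4 groups was fitted to the 12 libraries, with TMM normalization and the quasi-likelihood test of edgeR 4.0.16 (R 4.3.3; common biological coefficient of variation 0.29), with the contrast unirradiated CM minus WT and Benjamini-Hochberg adjustment over all genes tested, at 0.05. P values for named genes come from this fit. The design was unpaired. CPM are TMM-scaled, and list levels used log2 CPM with a prior count of 2. No 2 libraries of a group agreed within sampling noise. The fit was checked on simulated counts drawn independently for each library. They held no animal effect, so they could not check how 2 libraries of an animal bear on the number of calls.

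The comparison, the gene lists and the naming rule were chosen with earlier results of these data known. Named were Cbfb, Myh11 and Runx1, the 12 largest changes per direction among called, non-overlapping, named genes with a mean of at least 5 CPM in the higher group, up to 3 called members of each list with the smallest p, up to 2 members of lists without calls, and the 3 genes of lowest p in the test of the difference of genotype effects. Other members are given as values. A few genes that these rules select are not reported here. Alternatives were RLE scaling, DESeq2 1.42.0, limma-voom (limma 3.58.1) without and with the animal as a block, other filters, a library series term, a replicate block, limma on log2(RPKM + 0.1) and log2(RPKM + 1), the 6 libraries alone and each library left out.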

Additional observations from a re-analysis of the deposited data

How the results depend on the processing

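All called genes kept their direction under every alternative in which they were tested, while their number moved. DESeq2 called 922 genes (501 higher, 421 lower, 87 in the lists, with 18 adjusted p not given), and all 237 were among them. limma-voom with the animal as a correlated block (correlation 0.723) called 5 genes, 4 higher and 1 lower, 1 of them in the lists. The 6 unirradiated libraries alone gave 78 (25 higher, 53 lower, 9 in the lists). A library series term left 17 list genes called. With 1 library left out at a time the count ran from 4 to 914, with 4 to 519 higher, 0 to 395 lower and 1 to 83 list genes. A further 2 alternatives were chosen after seeing the data: without the irradiated library of CM animal 3 there were 361 calls, 180 of them lower, and without both of its libraries 147 calls, 67 of them higher and 17 in the lists. For the difference of the genotype effects 0 genes passed under every alternative except limma on log2(RPKM + 1), which called 1. RLE scaling, limma-voom, both filters and both RPKM fits gave 172 to 240 calls.

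The replicate block by title number gave 854 calls (557 higher, 297 lower, 59 in the lists), which included all 237. WT and CM libraries of the same number came from different animals, and their deviations correlated at 0.528, 0.382 and -0.365, so they share only a number.

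Genes under 1 CPM rest on few reads, and each genotype held 3 animals. Because no called gene overlapped between the groups, the kept direction is no sign of stability.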

Other observations

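A further 6 called genes outside the naming rule were chosen after their values were seen. Id1, an inhibitor of basic helix-loop-helix factors, stood at 28.4, 33.2 and 30.3 CPM in WT and at 65.1, 54.4 and 64.8 CPM in CM (log2 fold change 1.0 ± 0.14, adjusted p = 0.0156). Ccnd1, the gene of cyclin D1, stood at 42.4, 25.1 and 28.1 CPM in WT and at 7.10, 3.81 and 5.45 CPM in CM (-2.55 ± 0.46, adjusted p = 0.029). Il21r, the interleukin-21 receptor, fell from 32.4, 21.0 and 22.7 CPM to 7.54, 6.77 and 8.72 CPM (-1.72 ± 0.21, adjusted p = 0.00932). Chdh, choline dehydrogenase, fell from 41.8, 39.4 and 41.1 CPM to 24, 21.7 and 19.9 CPM (-0.90 ± 0.11, adjusted p = 0.00932). Lat, an adaptor of T cell and mast cell receptors, rose from 18.4, 8.90 and 9.97 CPM to 42.8, 37.4 and 47.5 CPM (1.78 ± 0.31, adjusted p = 0.0245). Lef1, a WNT pathway factor of lymphoid progenitors, fell from 2.10, 2.78 and 2.88 CPM to 0.239, 0.737 and 0.270 CPM (-2.63 ± 0.52, adjusted p = 0.0393). None of these genes overlapped between the groups.

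Chromosome Y, with 2 genes tested, held no called gene. On the other chromosomes the share of genes called ran from 0.529% of 756 genes tested on chromosome 8, which carries Cbfb, to 2.92% of 1132 on chromosome 7, with 15 higher and 18 lower there.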
